A study of Mus musculus with 14 samples.

Results

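The non-clustered protocadherins Pcdh1, Pcdh7, Pcdh8, Pcdh9, Pcdh10, Pcdh17, Pcdh18, Pcdh19 and Pcdh20 are 9 of the 26528 genes in the deposited brain table and of the 28316 in the retina table. They were selected on measured values of these data: the set was drawn up around the question whether Pcdh17 alone rises in endothelial cells (ECs) when a TGF-beta receptor is removed, so every control against knockout value of a member is a description and carries no test.

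Protocadherins are cadherin-family adhesion molecules with a single transmembrane segment, and the non-clustered ones lie at scattered loci outside the large alpha, beta and gamma clusters. The delta-1 branch (Pcdh1, Pcdh7 and Pcdh9 here) carries a cytoplasmic motif that binds protein phosphatase 1 alpha, and the delta-2 branch (Pcdh8, Pcdh10, Pcdh17, Pcdh18 and Pcdh19, with Pcdh20 often placed beside it) includes members that recruit the actin-regulating WAVE complex to cell contacts. They are best known from neurons, where they act in homophilic adhesion, axon growth and synapse organisation.

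The series measured nuclear RNA by droplet single-nucleus sequencing (PIPseq) in mice carrying VEcadCreER;Tgfbr1CKO/-, in which a tamoxifen-inducible Cre driven by the VE-cadherin (Cdh5) promoter removes the floxed Tgfbr1 allele from ECs over a null allele. These mice (CKO) received 4-hydroxytamoxifen (4HT) between postnatal days 3 and 5. Controls are labelled wild type. The paper's controls are wild type by phenotype and mostly carry the Cre with 1 floxed and 1 intact allele (Tgfbr1CKO/+ or Tgfbr2CKO/+), but the genotype and 4HT treatment of these libraries and the strain of all mice are not given in the sources used here. The methods text puts the mice at postnatal day 14, whereas the series summary calls them young adults. The retina has 1 control and 11 CKO libraries, each from whole retina, and the number of mice in each is not stated. The brain has 1 control and 1 CKO library, made from vascular fragments enriched on Ficoll, with 2 brains pooled in each. Since each tissue has 1 control library, genotype cannot be told apart from the animals and the preparation of that library.

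Values are UMIs (counted molecules) of a gene for every 1000000 UMIs of all nuclei with the same deposited cell type label, written CPM. Intervals are 95% and exact (Poisson for CPM, conditional binomial for ratios, Clopper-Pearson for shares), and they cover counting error only, not animals. Those for CPM and ratios take each UMI as independent, so they are too narrow where the UMIs of a gene sit in few nuclei. The brain control holds 16649 nuclei with 49798325 UMIs and the brain CKO 14675 nuclei with 31033373 UMIs. The retina control has 11513 nuclei and 30989702 UMIs. Among the retina CKO libraries CKO 4 stands apart with 104 nuclei and 90449 UMIs, and the deepest, CKO 5, has 18862 nuclei and 55803724 UMIs. Retina CKO libraries 8 to 11 were made with the PIPseq v5.0 kit and all others, brain included, with v4.0 PLUS. The brain libraries share 2 nucleus barcodes and the retina libraries 10, which concern 0.0128% and 0.0257% of their nuclei.

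Tgfbr1 itself is the targeted gene. In brain ECs its control level was 69.1 CPM and its CKO level 62.9, a ratio of 0.910 (0.792 to 1.05). In the retina it stood at 89.0 CPM in the control and between 71.4 (CKO 1) and 87.0 (CKO 11) in 10 CKO libraries, with 365 CPM in the sparse CKO 4. These UMIs are not resolved by exon, so they check nothing about the deletion. The sex of the pools differed: brain ECs held 13036 UMIs of the X-inactivation transcript Xist in the control and 2 in the CKO, while the Y-linked Uty had 318 and 930 UMIs and Ddx3y 556 and 1373. The brain control pool thus carries both kinds of transcript and the CKO pool almost no Xist, so for the X-linked Pcdh19 genotype and sex cannot be told apart. In the retina the control held 6779 CPM of Xist and 2.07 of Uty, and CKO 1, 2, 4 and 7 held at least 5577 CPM of Xist, while the other 7 CKO libraries held at most 12.9 CPM of Xist, so sex differs there in part as well.

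The deposited EC label covers 2475 control and 2944 CKO nuclei. All 9 EC markers examined are higher in it than in the pool of all other brain labels, with summed levels of 12213 CPM (control) and 9478 (CKO), with Flt1 the most abundant. The same nuclei also carry all 8 pericyte markers above the pool of all other labels, at a summed 7924 and 6796 CPM, most of it Rgs5 (5631 and 4831 CPM). In the control the pericyte label is higher than ECs in all of them but Rgs5, as in Atp13a5 (9857 against 647 CPM). The separate pericyte label holds 201 control and 22 CKO nuclei, and 80.2% of control and 93.2% of CKO EC nuclei have pericyte markers above 10% of their EC and pericyte marker UMIs. The EC label thus holds nuclei with EC markers that mostly carry pericyte transcripts as well. The vSMC label (vascular smooth muscle cells) in turn carries all 9 EC markers above the pool of all other labels, though below the EC label in sum, at a summed 5708 and 5644 CPM.

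In these EC nuclei 7 of the 9 members had at least 20 UMIs over both libraries; Pcdh8 (0 and 1 UMIs) and Pcdh20 (3 and 3) did not. Pcdh17, a delta-2 member known from axon bundling and presynaptic assembly, stood at 13.1 CPM (10.3 to 16.4; 76 UMIs) in the control and 169 CPM (160 to 179; 1159 UMIs) in the CKO. The intervals lie far apart and the ratio is 12.9 (10.2 to 16.5), rank 43 of 13154 genes. It was the 1 member with a ratio of at least 2, where 11.2% of all genes with 20 UMIs reached that ratio. No member reached a ratio of 0.5 or less, against 5.79% of all genes. These shares describe a contrast that was used to choose the members, and nothing is read from them. The nearest member under the fold of 2 was Pcdh18 at 1.28 (1.13 to 1.44), so no member lies close to that fold on either side in this setting. The count of 1 changes with the nuclei read: in EC nuclei without a UMI of the 7 pericyte markers other than Rgs5 (chosen after the data were seen) Pcdh7, at 2.21, and Pcdh18, at 3.98, pass it too, as do 25.7% of 6919 genes there (7.63% fall to 0.5 or less, and no member). Over all brain nuclei with UMIs of at least 2 EC markers Pcdh7 (0.435), Pcdh9 (0.420) and Pcdh10 (0.413) fall under 0.5, as do 17.1% of 15393 genes, while Pcdh17 stands at 3.27 and 4.62% of genes reach 2.

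The other 6 measurable members moved little by comparison. Pcdh1, a delta-1 adhesion molecule also found in epithelia and vessels, went from 148 to 178 CPM, a ratio of 1.21 (1.11 to 1.32). Pcdh18, another delta-2 member, went from 78.3 to 100.1 CPM. Pcdh19, a delta-2 member linked to a female-limited epilepsy, went the other way, from 275 to 222 CPM, a ratio of 0.805 (0.750 to 0.864). Intervals for these 3 exclude a ratio of 1, but each rests on 1 library per genotype. For Pcdh7 (1.04; 0.877 to 1.24), Pcdh9 (0.980; 0.920 to 1.04) and Pcdh10 (1.06; 0.521 to 2.18) a difference was not detectable at this depth over all EC nuclei. The Pcdh9 ratio went both ways with the nuclei read. It was 1.30 (1.16 to 1.46) in those with no neuronal marker UMI. It was 0.723 (0.594 to 0.877) in those with no UMI of the 7 pericyte markers other than Rgs5. Both sets were chosen after the data were seen. Pcdh9 UMIs sat in few EC nuclei (a mean of 6.75 in each control nucleus with any), so these intervals can be too narrow. Lower values of Pcdh9 and Pcdh7, by vessel-segment markers, are given below. Scaling by edgeR's TMM factors in place of total UMIs multiplies every ratio by the same 0.910, a log2 shift of -0.14. Pcdh1 is then at 1.10, Pcdh17 at 11.7, Pcdh18 at 1.16, Pcdh9 at 0.892 and Pcdh19 at 0.732. Pcdh7 is at 0.947 and Pcdh10 at 0.963, so for these 2, near 1 in either scaling, no direction is given. The median log2 ratio of the 7 members was 0.08, beside 0.14 for all genes.

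**Figure D1:**
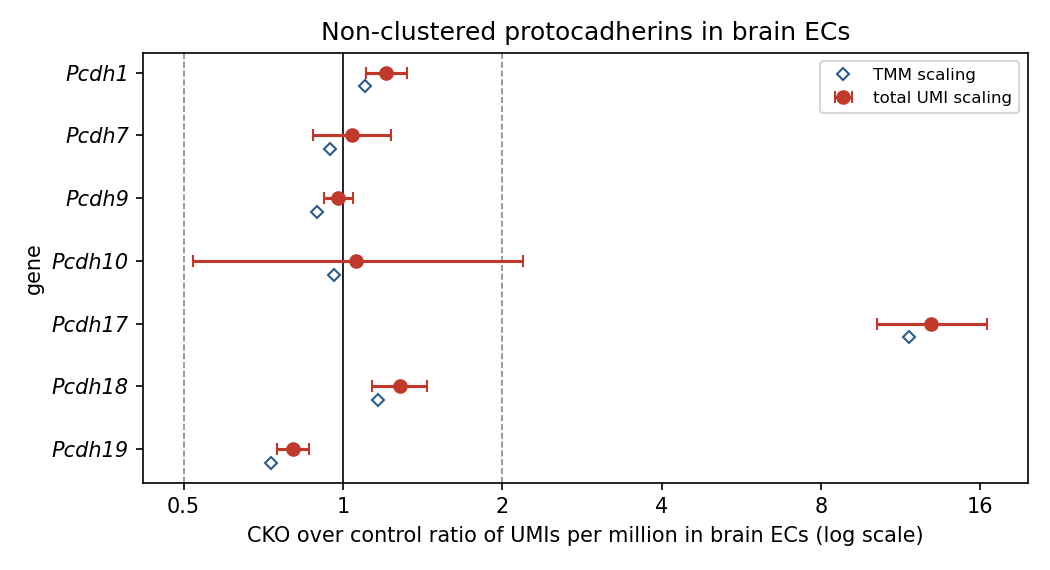
CKO over control ratio of CPM in brain ECs (log axis) for the 7 members with at least 20 UMIs, with 95% exact conditional binomial intervals (counting error only, 1 library per genotype) and the ratio under TMM scaling as open diamonds; dashed lines mark 0.5 and 2. Pcdh17 lies at 12.9 while the others lie between 0.805 and 1.28.

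The same Pcdh17 UMIs can be described by the nuclei that hold them, which adds no support of its own. A Pcdh17 UMI was found in 49 of 2475 control EC nuclei, 1.98% (1.47 to 2.61), and in 576 of 2944 CKO EC nuclei, 19.6% (18.1 to 21.0). Median depth was close, 1347 and 1491 UMIs per nucleus. In Glut_5 neurons, the label with the lowest Pcdh17 level of those with at least 50000 UMIs, 0.215% of control and 1.195% of CKO nuclei had one, at lower median depths of 713 and 502 UMIs. After thinning each nucleus to 500 UMIs, which left out 416 control and 343 CKO nuclei, the EC shares were 0.583% (0.301 to 1.02) and 6.81% (5.87 to 7.84). Thinned alike, control Glut_5 nuclei had 0.0654% (0.00166 to 0.364), which overlaps the control EC interval, and 0 of 128 CKO Glut_5 nuclei had one, which allows up to 2.84%. In CPM over all nuclei the control intervals of ECs (13.1; 10.3 to 16.4) and Glut_5 (4.39; 1.76 to 9.04, from 7 UMIs) do not overlap. Among EC nuclei with a Pcdh17 UMI the control mean was 1.55 UMIs and the CKO mean 2.01, and the most in 1 nucleus was 6 and 23. The nuclei with a UMI were deeper than those without, with medians of 6584 against 1311.5 UMIs in the control and 3254.5 against 1241 in the CKO.

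Because pericyte and neuronal transcripts sit in the EC label, Pcdh17 was also read in nuclei with little of either. In EC nuclei with pericyte markers at or below 10% of the marker UMIs (491 control, 201 CKO), it went from 13.7 to 278 CPM, a ratio of 20.3 (8.04 to 65.5). In those without a UMI of the 7 pericyte markers other than Rgs5 (949 and 592 nuclei), a set chosen after the data were seen, it went from 8.90 to 223 CPM, a ratio of 25.1 (12.4 to 59.4). In the EC nuclei above 10% the ratio was 12.8 (10.03 to 16.5), which overlaps both, and the difference between these sets was not tested. In EC nuclei without a UMI of the neuronal markers Rbfox3, Snap25 and Syt1 (2285 and 2734), also chosen after the data were seen, it went from 6.70 to 166 CPM, a ratio of 24.7 (17.5 to 36.1). In the 190 control and 210 CKO nuclei with such a UMI it went from 49.1 to 196 CPM, so the control level is higher there and the ratio lower, at 4.00.

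The Pcdh17 ratio was also read by the depth of the nuclei and by their vessel-segment markers. It was 40.9 (11.0 to 343) in EC nuclei under 1000 UMIs, where the control has 2 UMIs. It was 17.5 (10.1 to 33.2) from 1000 to under 3000, and 11.1 (8.58 to 14.7) from 3000 UMIs on. These intervals overlap, and the difference by depth was not tested. A nucleus was given the class whose markers had the most UMIs, at least 2 and more than either other class. Nuclei of the capillary class (4 markers; 2124 and 2126) went from 12.5 to 143 CPM. Those of the arterial class (109 and 93 nuclei, 6 markers) had 22.9 and 26.0 CPM from 6 UMIs each, a ratio of 1.14 (0.303 to 4.25), so the arterial interval lies below that of all EC nuclei; the difference between classes was not tested. The 14 control and 61 CKO nuclei of the venous class (5 markers) held 0 and 42 UMIs; in the control that allows up to 139 CPM (3 counts), and the CKO stood at 251 CPM (181 to 339), with an exact lower limit of 1.41 for the ratio. Nuclei given no class (228 and 664) went from 18.3 to 415 CPM. The make-up of the label changed along with this: nuclei of no class rose from 9.21% to 22.6% of EC nuclei and the 4 capillary markers fell from a summed 5416 to 2808 CPM. The part of this shift in the Pcdh17 value was not tested. Within the capillary class alone its ratio is 11.4 (8.89 to 14.9). In the arterial class Pcdh9 was at 0.231 (0.113 to 0.434) from 59 and 12 UMIs, and Pcdh7 at 0.151 (0.0168 to 0.651) from 15 and 2. Their capillary ratios were 1.00 and 0.999. Pcdh9 was at 0.537 (0.428 to 0.678) in nuclei of no class and 0.649 (0.543 to 0.774) in nuclei under 1000 UMIs. These differences were not tested. Over all EC nuclei up to 67 Pcdh9 UMIs sat in 1 control nucleus, so these Pcdh9 intervals can be too narrow.

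Outside ECs Pcdh17 is an abundant transcript of several brain cell types, where its CKO over control ratio went both ways. The brain labels give a class (Glut for glutamatergic, GABA for GABAergic, CP) with a cluster number. In the control the level was highest in oligodendrocytes, at 759 CPM (716 to 803), then oligodendrocyte precursors (OPCs) at 657 (589 to 730), then Glut_20 at 488 (430 to 551). The intervals of the first pair overlap and that of Glut_20 lies below both, while the astrocytes (382), GABA_9 (365) and Glut_1 (363) that come next overlap each other. The remaining glutamatergic labels with 20 UMIs ran from 325 (Glut_11) down to 173 CPM (Glut_0), followed by CP_8 and CP_6 (64.7 and 63.9), vSMCs (56.9) and the label glia (23.7). ECs were at place 19 of 21 labels in the control and 12 of 18 in the CKO, counting labels with 50000 UMIs.

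In the CKO library oligodendrocytes (788 CPM, ratio 1.04), Glut_1 (363 CPM, ratio 0.998) and GABA_9 (346 CPM, ratio 0.949) held their level within counting error. Pcdh17 was lower in OPCs, at 417 CPM (ratio 0.634; 0.495 to 0.805), in astrocytes, at 202 CPM (0.528; 0.423 to 0.654), and in Glut_0, at 138 CPM (0.798; 0.741 to 0.858). It was higher in glia, at 48.1 CPM (2.03; 1.17 to 3.44), in vSMCs, at 96.8 CPM (1.70; 1.04 to 2.68), in CP_6 (1.28; 1.01 to 1.62) and in Glut_19 (1.24; 1.04 to 1.48). Median UMIs per nucleus were also lower in the CKO in OPCs (616.5 against 986), astrocytes (578.5 against 1150.5) and Glut_0 (2314 against 5004). They were lower as well in oligodendrocytes (954.5 against 2328), where the Pcdh17 level held. A part of depth in these values was not tested. Of the 17 labels with 20 UMIs, astrocytes had the lowest ratio and glia, after ECs, the highest. Over all nuclei the level was 209 and 218 CPM, so the sum hides the EC difference. The pericyte label held 1 and 0 UMIs and gives no value.

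**Figure D2:**
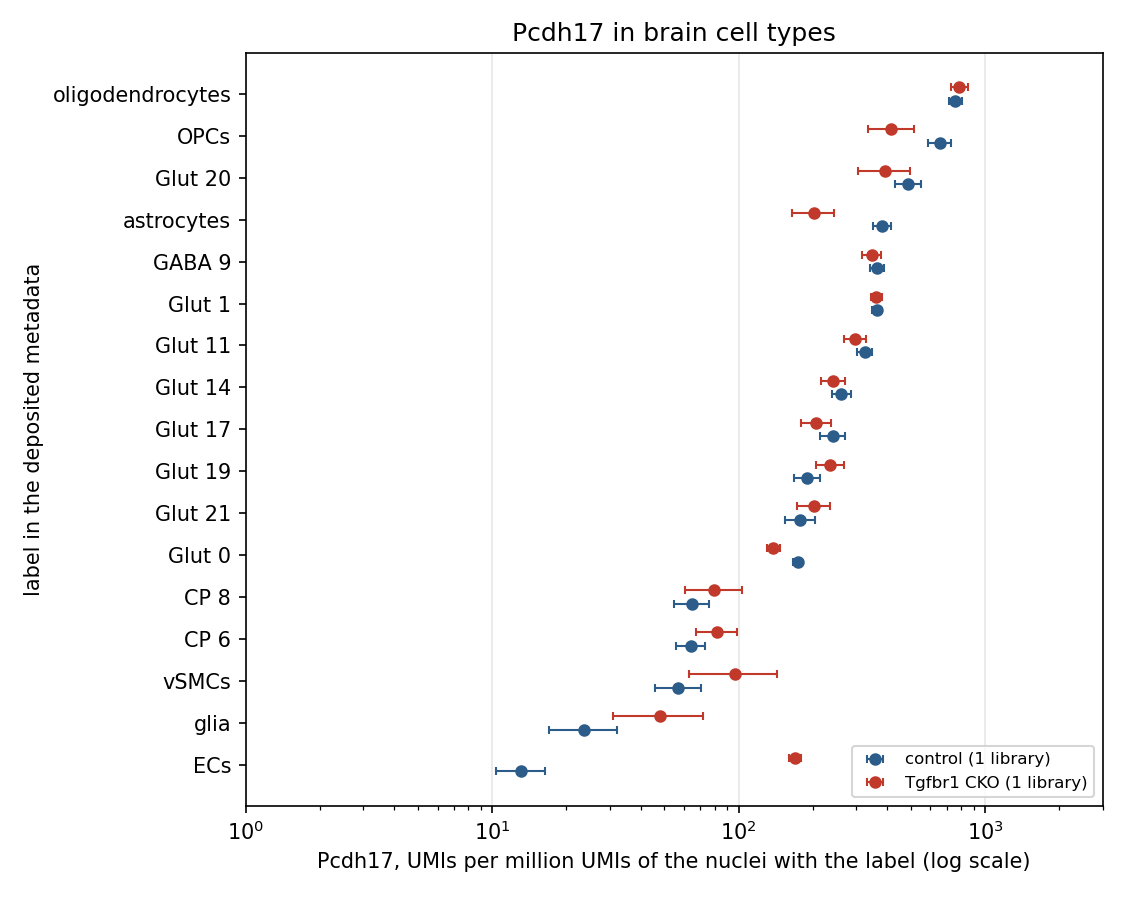
Pcdh17 CPM (log axis) in each brain label with at least 20 Pcdh17 UMIs, control in blue and CKO in red, with 95% exact Poisson intervals (1 library each). ECs rise from 13.1 to 169 while OPCs and astrocytes fall and oligodendrocytes stay near 759 and 788.

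Of the delta-1 members, Pcdh1 belongs to the vascular labels. In the control it was highest in pericytes, at 197 CPM (126 to 293), and ECs, at 148 (138 to 158), then vSMCs at 85.3 (71.4 to 101). The first 2 overlap. In the CKO ECs led at 178 CPM and vSMCs had 92.9; the pericyte label, with 9213 UMIs in all, held none, which allows up to 326 CPM and so leaves a difference undetectable. In neurons Pcdh1 differed between the libraries: Glut_0 held 109 UMIs in the control, in 95 of 2112 nuclei, and 0 in the CKO. With a floor of 3 counts, 0.362 CPM, the control value is 25.9-fold above the floor. The exact upper limit of the ratio is 0.0483. Glut_11 held 30 and 0 UMIs, the control 5.45-fold above the same floor, with an exact upper limit of 0.240. The exact limits are the bounds, since the folds leave out the counting error of the control. Of the 7029 genes with at least 100 UMIs in control Glut_0 nuclei, 2 had none in the CKO, and Pcdh1 was 1 of them.

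Pcdh7 and Pcdh9 show the reverse distribution, with ECs at or near the bottom. Pcdh7, which binds protein phosphatase 1 alpha and acts in adhesion and axon growth, was highest in oligodendrocytes (2535 CPM in the control, 2703 in the CKO) and lowest in ECs in both libraries (42.9 and 44.7). Outside ECs it was higher in the CKO in the label glia, at 993 and 1843 CPM (1.86; 1.71 to 2.01), in GABA_22, with a ratio of 3.01 (1.70 to 5.17), and in microglia, with a ratio of 3.75 from 16 and 11 UMIs. In every other label with 20 UMIs its ratio lay between 0.771 (Glut_20) and 1.30 (Glut_21). Pcdh9, the delta-1 member with the widest neural expression, was also highest in oligodendrocytes, at 27211 (control) and 29587 CPM (CKO). It fell from 5241 to 3844 CPM in astrocytes (0.733; 0.697 to 0.771) and from 1466 to 987 in vSMCs (0.673; 0.589 to 0.767), and was higher in the 11 CKO nuclei of the microglia label, at 5056 CPM against 1639 (3.08; 2.29 to 4.13). In ECs the Pcdh7 and Pcdh9 UMIs sit largely in few nuclei: Pcdh9 was found in 10.7% of control and 11.7% of CKO EC nuclei with a mean of 6.75 and 6.04 UMIs in each. EC nuclei without a neuronal marker UMI held 103 and 133 CPM of Pcdh9 and those with one 1465 and 1570; for Pcdh7 the values were 17.5 and 14.9 CPM against 186 and 268.

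Among the delta-2 members Pcdh10, which recruits the WAVE complex through Nckap1, lies mostly outside vessels. It was highest in OPCs in the control, at 288 CPM (244 to 338; 150 UMIs), and fell there to 38.3 (16.5 to 75.5; 8 UMIs), a ratio of 0.133 (0.0564 to 0.269). It also fell in oligodendrocytes from 113 to 60.4 CPM (0.535; 0.376 to 0.749) and in GABA_9 from 209 to 137 (0.656; 0.557 to 0.771). Astrocytes kept 261 and 227 CPM with overlapping intervals. ECs held 2.76 and 2.92 CPM from 16 and 20 UMIs.

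Pcdh18 and Pcdh19 are the delta-2 members with vascular labels near the top. Pcdh18 was found in pericytes, at 378 CPM (276 to 504) in the control and 217 (26.3 to 784; 2 UMIs) in the CKO, in vSMCs, at 98.3 and 108, and in ECs, with a median of 0 CPM over the brain labels of both libraries. Within the EC label it follows the pericyte markers: nuclei with these at or below 10% held 1 control and 3 CKO UMIs (2.75 and 19.4 CPM), against 83.3 and 102 CPM in nuclei above 10%. Pcdh19, in contrast, was higher in the control in nuclei with few pericyte markers, at 398 CPM against 267, and ECs were its highest label with 50000 UMIs in both libraries. Its ratio in ECs was 0.569 (0.381 to 0.827) in nuclei with few pericyte markers and 0.829 (0.771 to 0.892) in the others. The direction turned in the arterial class, at 1.84 (1.04 to 3.33; 21 and 34 UMIs), and over all brain nuclei with UMIs of at least 2 EC markers the ratio was 1.01. Elsewhere Pcdh19 fell from 148 to 22.5 CPM in Glut_20 (0.152; 0.0404 to 0.405), from 104 to 41.2 in oligodendrocytes (0.394; 0.258 to 0.585) and from 65.4 to 33.1 in Glut_0 (0.505; 0.439 to 0.581). Over the 16 labels with 20 Pcdh19 UMIs the ratio ran, outside ECs, from 0.152 (Glut_20) to 1.65 (the sparse pericyte label). Glut_19 (1.04) and GABA_9 (0.933) showed no difference beyond counting error. The difference between labels was not tested, since there is 1 library per genotype.

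Pcdh8, an activity-linked member that acts in the removal of N-cadherin from synapses, and Pcdh20 were near the detection limit throughout the brain. Pcdh8 reached 32.3 CPM in control and 39.3 in CKO Glut_20 nuclei, from 17 and 7 UMIs. Pcdh20 was highest in Glut_20 in the control, at 24.7 CPM from 13 UMIs, and in Glut_17 in the CKO, at 22.9 from 22; Glut_17 had 16.96 in the control and Glut_20 had 22.5 in the CKO. The intervals of the libraries overlap for both genes in these labels.

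In the GRCm39 annotation 4 of the 9 members lie on chromosome 14 (Pcdh8, Pcdh17, Pcdh20 and Pcdh9, spread over 14.1 Mb), 2 on chromosome 3 (Pcdh10 and Pcdh18) and 1 each on chromosomes 5 (Pcdh7), 18 (Pcdh1) and X (Pcdh19). Pcdh17 lies on the plus strand at 84680965 to 84776442. That chromosome 14 stretch holds 7 protein-coding genes, and 5 of its 24 genes in the table reached 20 UMIs in ECs. Its long non-coding neighbour 9630013A20Rik, which overlaps Pcdh17 on the opposite strand, had 45 and 35 UMIs, a ratio of 0.659 (0.411 to 1.05). Diaph3 had 184 and 543 UMIs, a ratio of 2.50 (2.11 to 2.97), Tdrd3 a ratio of 1.15 and Pcdh9 0.980. Besides Pcdh17, Diaph3 thus passes a fold of 2 in this stretch, and the gene that overlaps Pcdh17 does not.

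By Pearson's r of log2(CPM + 1) over the 39 brain label and library sums with at least 50000 UMIs, the gene most like Pcdh17 among 14447 was another member, Pcdh10 (0.850), which had an EC ratio of 1.06. The points share 2 libraries and differ in depth, so r is a description. Among the other members r was 0.587 for Pcdh7, 0.523 for Pcdh9, 0.492 for Pcdh20, 0.326 for Pcdh19, -0.229 for Pcdh1 and -0.475 for Pcdh18. Pcdh8 has no value in this measure. Of the members compared, Pcdh1 and Pcdh18 are thus the least like Pcdh17.

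TGF-beta receptors act through Smad proteins, for which the letters CAGAC, read on the opposite strand as GTCTG, and also GGCGCC are known binding motifs. The 250 bases upstream of the annotated starts (RefSeq, GRCm38.p6) are shown for Pcdh17 and Pcdh19, the members with the highest and lowest EC ratio, as chr14:84443313-84443562 on the plus strand and chrX:133688994-133689243 on the minus strand. Capitals mark matches to these letters on either strand, which do not overlap each other. Pcdh17 has 1 match to CAGAC or GTCTG and 1 to GGCGCC, and Pcdh19 has 1 to CAGAC. Of 27025 promoter windows of this length 42.1% hold the first motif and 9.54% the second, so a match sets neither gene apart. Pcdh20 also holds 1 match to the first motif; Pcdh7, Pcdh8, Pcdh9, Pcdh10 and Pcdh18 hold neither in this window, and Pcdh1 was not examined.
Pcdh17: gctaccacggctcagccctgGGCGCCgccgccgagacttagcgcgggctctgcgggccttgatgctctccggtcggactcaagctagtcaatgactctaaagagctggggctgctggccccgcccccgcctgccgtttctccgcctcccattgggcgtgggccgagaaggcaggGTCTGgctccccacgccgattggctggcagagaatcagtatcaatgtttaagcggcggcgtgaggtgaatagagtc
Pcdh19: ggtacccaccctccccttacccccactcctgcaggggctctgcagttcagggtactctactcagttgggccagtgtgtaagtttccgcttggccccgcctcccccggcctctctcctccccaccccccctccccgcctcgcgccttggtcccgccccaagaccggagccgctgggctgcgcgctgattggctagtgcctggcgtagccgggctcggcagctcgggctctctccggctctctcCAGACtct

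The wider cadherin superfamily gives the setting for these EC values, by lists drawn up for this purpose. Of the other non-clustered protocadherins Pcdh12, an endothelial adhesion molecule, had a ratio of 1.25 (1.09 to 1.44), Pcdh15, of the hair-cell tip link, 1.79 (1.42 to 2.27), and the X-linked Pcdh11x 0.832 (0.565 to 1.22), so none of the 3 passed a fold of 2. Of 56 clustered protocadherins measured in the brain, 33 had 20 UMIs, with 6 at or above 2 and 1 at or below 0.5. Of 23 cadherins named Cdh 17 had 20 UMIs, with 1 above and 5 below, and of the 9 Fat, Dachsous and Celsr genes 6 had, with 2 and 2. Over all 13154 genes with 20 UMIs 11.2% reached 2 and 5.79% fell to 0.5 or less. The lists were not tested against these shares. None of the 7 catenins, 9 WAVE complex genes or the partners Ppp1ca and Taok2 passed either fold. The highest ratios in these lists were Pcdhb7 (8.26; 4 and 39 UMIs), Pcdhb9 (8.04; 2 and 19 UMIs) and Pcdhgb5 (2.86; 24 and 81 UMIs). The lowest were Fat2, Dchs2 and Cdh9 (each 0.339) and Pcdhac2 (0.282). As endothelial references Cdh5 went from 667 to 1003 CPM (1.503; 1.44 to 1.56) and Cldn5 from 2532 to 1900 (0.750; 0.733 to 0.768), so the EC marker content itself moved both ways.

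In the retina no label stands for ECs, and the question there is how the members vary between cell types and between 11 CKO libraries. CKO 4 enters with its ganglion (25) and immune cells (65) alone, since its other labels have fewer than 20 nuclei. Pcdh17 was highest in inner retinal neurons. In GABAergic amacrine cells it stood at 266 CPM in the control and 214 to 328 (median 285) in the CKO libraries, in cone bipolar cells at 316 against 175 to 304 (median 268), and in glycinergic amacrine cells at 232 against 97.5 to 224 (median 158). The control lies inside the CKO range in the first of these and above every CKO library in the other 2, just over the highest of them. Horizontal cells (123 against 74.2 to 196, median 125) and ganglion cells (135 against 55.3 to 179, median 125) overlapped each other and the control. The 55.3 is CKO 4 with 2 UMIs, and the lowest other library in ganglion cells is CKO 7 at 91.6. Muller glia had 17.2 against 5.98 to 28.3 (median 21.3), rods 9.30 against 1.06 to 16.4 (10.3), cones 17.5 against 1.54 to 44.1 (13.7) and rod bipolar cells 5.26 against 0.839 to 22.9 (7.13). These low types overlap one another, and each control value lies within its CKO range. Immune cells had 210 CPM in the control, from 24 UMIs, against 23.2 (CKO 4, 1 UMI) to 172 (median 72.6). By the paper's account the make-up of this label differs between control and CKO retinas, so level and make-up cannot be told apart here.

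**Figure D3:**
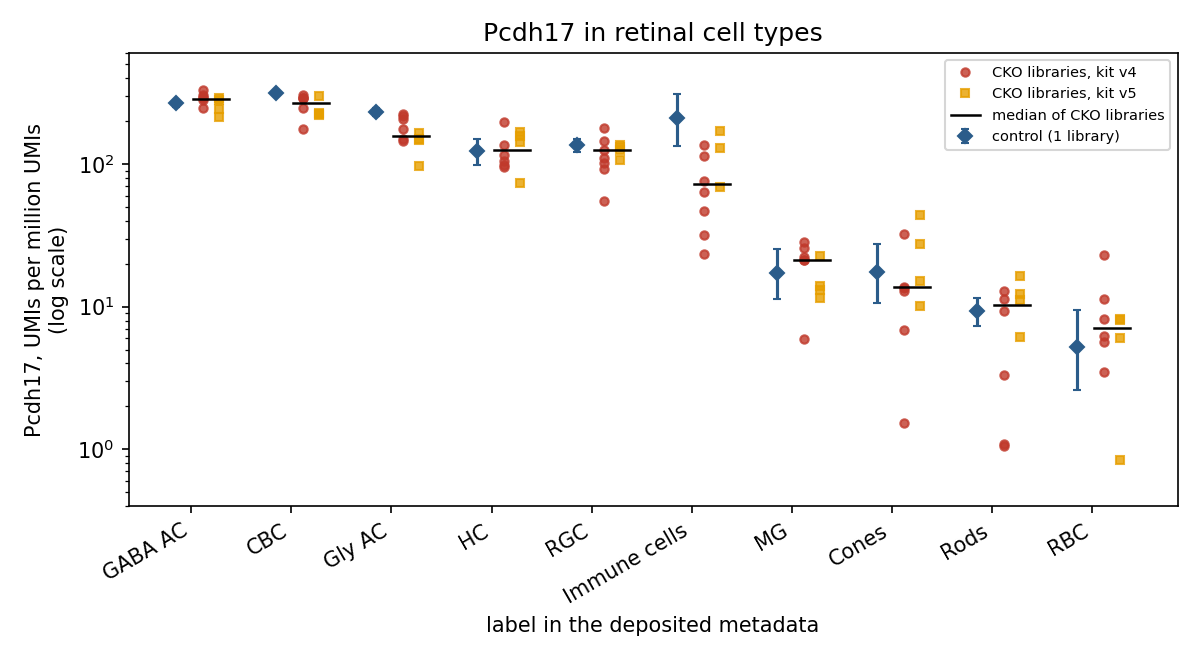
Pcdh17 CPM (log axis) in 10 retinal cell types, with the control (blue, 95% exact Poisson interval), the CKO libraries with at least 20 nuclei of the type (red circles kit v4.0 PLUS, orange squares v5.0) and the CKO median (line). CBC is cone bipolar, RBC rod bipolar, AC amacrine, HC horizontal, RGC ganglion cells and MG Muller glia; the control lies above every CKO library in CBC, Gly AC and immune cells, the last a label whose make-up differs between the genotypes.

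The other members also vary between retinal cell types. Pcdh7 (median 1790 CPM over CKO libraries), Pcdh10 (171), Pcdh19 (129), Pcdh1 (10.4) and Pcdh18 (9.84) were each highest in GABAergic amacrine cells. Pcdh9 was highest in cone bipolar cells (5854) and lowest in rod bipolar cells (322), and Pcdh8 (9.28) and Pcdh20 (3.10) were highest in ganglion cells. Over 71 gene and cell type pairs with 20 UMIs, the control lay above all CKO libraries in 4 and below all in 2, against 5.05% and 5.9% of 155569 pairs of all genes. Besides the 3 Pcdh17 values these are Pcdh10 in Muller glia (39.7 against 2.15 to 23.9, median 15.1), above, and Pcdh9 in rod bipolar cells (250 against 274 to 490) and Pcdh1 in Muller glia (0 UMIs against 0.760 to 12.3 CPM, median 4.28), below; the interval of that 0 reaches 2.44 CPM, so the control is not shown to lie under the lowest CKO library. Within the batch of the control, which holds CKO 1 to 3, the counts were 17 and 9 of 54 pairs, against 20.7% and 25.5% of 119120 pairs of all genes.

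Retinal ECs were sought by markers. Over all retinal nuclei the 9 EC markers sum to 84.5 CPM, of which Flt1 makes up 14725 of 21774 UMIs, and 13220 of those Flt1 UMIs are in Muller glia. Nuclei with at least 3 of the 9 markers numbered 55 of 77676. In the control 5 such nuclei held 2 Pcdh17 UMIs, 29.3 CPM (3.55 to 106), and over the CKO libraries 50 held 233, 119 CPM (104 to 135), from 0 (CKO 3 and CKO 11, with 1 and 3 nuclei) to 178 CPM (CKO 6). The control value lies within the range of the CKO libraries. The label most frequent among the CKO nuclei was ganglion cells, with 11 of 50, and without neuron labels 1 control nucleus with 0 UMIs and 12 CKO nuclei with 62.0 CPM remain. These nuclei are too few and too mixed in label to give Pcdh17 in retinal ECs.

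A contrast that the choice of members did not use is the kit, v5.0 (CKO 8 to 11) against v4.0 PLUS (CKO 1 to 7) among the CKO libraries. Kit, batch, depth, animals and sex go together in part. The v5.0 libraries are all in batch 3, with CKO 6 and 7, while CKO 1 to 3 are in batch 1 and CKO 4 and 5 in batch 2. Median UMIs per nucleus were 2717 to 4041 in v5.0 and 613 to 2029 in v4.0 PLUS libraries. All 4 v5.0 libraries carry Uty (297 to 316 CPM) and no more than 0.676 CPM of Xist. CKO 1, 2, 4 and 7 of the v4.0 PLUS libraries are Xist-bearing, so these cannot be told apart. Tests are edgeR quasi-likelihood fits on UMIs summed per library, with Benjamini-Hochberg adjustment over all genes. They scale by TMM factors and CPM values by total UMIs, so a fitted change can differ from the CPM medians. In Muller glia 0.497% of 10866 genes were higher in v5.0 and 1.24% lower, and in rods 4.26% and 9.42% of 11774. The number of called genes moved with single libraries. In Muller glia it was 189 with all of them, 419 without CKO 6, 505 without CKO 7 and 31, 45, 59 and 33 without CKO 8, 9, 10 and 11. In rods it was 1610 with all and 585, 479, 487 and 410 without CKO 8, 9, 10 and 11.

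None of the 5 members tested in Muller glia was called. The smallest adjusted p was that of Pcdh9, at 0.115 for a log2 fold change of -0.47, and Pcdh7 (0.38, adjusted p 0.224) and Pcdh17 (-0.62, adjusted p 0.358) followed. In rods Pcdh9 and Pcdh17 were tested and not called (adjusted p 0.588 and 0.511). Single alternatives called them: within batch 3, which holds both kits, Pcdh7 in Muller glia (0.65, adjusted p 0.0283) and Pcdh9 (1.47, 0.000818) and Pcdh17 (3.04, 0.00645) in rods, each higher in v5.0, and by DESeq2 Pcdh9 in Muller glia (-0.48, 0.0286). Within batch 3, 241 of 11045 genes in Muller glia and 2573 of 12256 in rods were called higher in v5.0, and 350 and 2153 lower. DESeq2 called 481 of 10866 genes lower in Muller glia, and 628 there and 2609 in rods in all. At an unadjusted p under 0.05 in edgeR there were 1954 genes in Muller glia, Pcdh7 and Pcdh9 among them, and 3720 in rods with neither member.

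The same fit was then run in the 8 other retinal cell types, a choice made after the data were seen, where 42 of 72 gene and type pairs could be tested. Over these types 1.91% of 80339 tests were called higher in v5.0 and 4.65% lower. Members were called in 8 pairs, each lower in v5.0 and each in inner retinal neurons. Pcdh9 in cone bipolar cells had 5834 to 7031 CPM (median 6186) in 6 v4.0 PLUS libraries and 4081 to 5241 (median 4492) in 4 v5.0 libraries. The groups do not overlap, and the log2 fold change was -0.64 (adjusted p 0.00236). In GABAergic amacrine cells Pcdh9 had 3779 to 5330 CPM (median 4941) against 3226 to 3861 (median 3618), with a log2 fold change of -0.61 (adjusted p 0.00900) and 3 of 4 v5.0 libraries below every v4.0 PLUS library. These were called in all 15 alternatives run for each, with adjusted p up to 0.0131 and 0.0379. CKO 4 enters the fits of ganglion and immune cells alone. In every other type the alternatives without CKO 4 and 5 and without CKO 5 are thus the same fit, counted apart.

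The remaining 6 calls depend on single libraries. Pcdh9 in glycinergic amacrine cells (-0.40, adjusted p 0.0299; 4 of 4 v5.0 libraries below the v4.0 PLUS median) and Pcdh7 in cone bipolar cells (-0.51, 0.0256; 4 of 4) were lost without CKO 8, 9 or 11, with adjusted p up to 0.0954 and 0.0915. Pcdh7 in glycinergic amacrine cells (-0.64, 0.0192; 4 of 4) was lost without CKO 8, 9 or 10, with adjusted p up to 0.0732. Pcdh7 in GABAergic amacrine cells (-0.48, 0.0331; 4 of 4) was lost without CKO 1, 3, 8, 9 or 10 and within the batch that holds both kits, with adjusted p up to 0.144. Pcdh17 is the weakest of the called members here. In GABAergic amacrine cells its v4.0 PLUS libraries had 249 to 328 CPM (median 292) and its v5.0 libraries 214 to 289 (median 262), which overlap, with -0.37 (adjusted p 0.0448; called in 3 of 15 alternatives, adjusted p up to 0.127). In glycinergic amacrine cells they had 144 to 224 (median 192) and 97.5 to 165 (median 149), which also overlap, with -0.61 (adjusted p 0.0494; called in 4 of 15, adjusted p up to 0.116). Either Pcdh17 call was lost on leaving out CKO 1, 5, 6, 7, 8, 9, 10 or 11, and that in GABAergic amacrine cells also without CKO 3. The number of member calls was 8 with all libraries, 5 without CKO 1, 9 without CKO 2, 6 without CKO 3, 6 or 7, 7 without CKO 5, 2 without CKO 8 or CKO 9, and 4 without CKO 10 or CKO 11. It was 12 without the sparse CKO 4, with 4 new calls in ganglion cells: Pcdh7 (-0.64, adjusted p 0.00577) and Pcdh9 (-0.75, 0.0221) lower and Pcdh8 (0.86, 0.0456) and Pcdh18 (1.00, 0.0444) higher in v5.0, where 4.6% of 11073 genes were lower and 1.66% higher. Without CKO 5 Pcdh8 in GABAergic amacrine cells was called higher (1.23, 0.0368), so not every alternative has downward calls only. In that fit 317 of 12778 genes were called higher and 672 lower.

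The sign of the fitted fold change in the kit contrast is described by gene, and a difference between genes was not tested. It was positive in each type tested for Pcdh1 (4 types), Pcdh8 (4), Pcdh18 (2) and Pcdh19 (6), with none called. It was negative in 6 of 8 types for Pcdh7, 8 of 10 for Pcdh9 and 7 of 9 for Pcdh17. Some of these negative fits stand beside higher CPM medians in v5.0 than in v4.0 PLUS libraries. For Pcdh17 these were horizontal cells (149 against 110, fitted -0.19) and ganglion cells (128 against 110, fitted -0.18). For Pcdh7 they were horizontal cells (394 against 370, fitted -0.40) and rod bipolar cells (7.75 against 7.53, fitted -0.79). The types come from the same libraries, so they are not independent. Pcdh10 had both signs, between -0.04 and 0.28. These counts are for the main fit, and over the alternatives the direction changed in 9 pairs. It changed in 4 alternatives for Pcdh19 in ganglion cells, 4 for Pcdh9 and 3 for Pcdh7 in immune cells, 1 each for Pcdh7 in rod bipolar cells and Pcdh17 in rod bipolar and ganglion cells, and 3, 4 and 6 for Pcdh10 in cone bipolar, glycinergic amacrine and horizontal cells. Within batch 3, 14 pairs were called, 8 lower and 6 higher, where 5.81% of 80558 tests over all genes were lower and 5.24% higher. Pcdh9 stayed lower in its 3 types, Pcdh7 in cone bipolar and glycinergic amacrine cells and Pcdh17 in glycinergic amacrine cells, and Pcdh7 (-0.53) and Pcdh9 (-0.86) were also lower in ganglion cells, while calls upward appeared for Pcdh1 (1.00), Pcdh8 (1.58), Pcdh10 (0.33) and Pcdh19 (0.47) in GABAergic amacrine cells, Pcdh19 (0.42) in glycinergic ones and Pcdh9 (1.17) in cones.

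**Figure D4:**
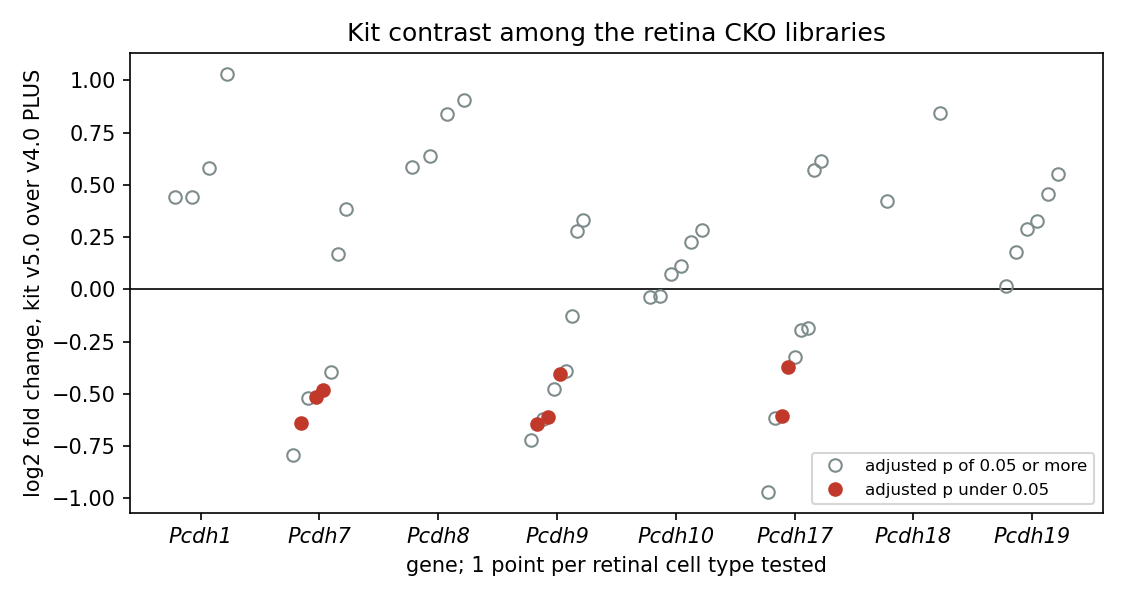
Log2 fold change of v5.0 over v4.0 PLUS among the retina CKO libraries for the 8 members that could be tested, 1 point per retinal cell type, filled where the adjusted p of the edgeR fit is under 0.05. The 8 filled points belong to Pcdh7, Pcdh9 and Pcdh17 and all lie below 0.

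Genes outside the 9 members were read for genotype as well, in Muller glia and rods, with the kit as a covariate and the single control taken to vary like the CKO libraries. A call here sets that 1 library apart from the CKO libraries, and genotype, library and in part sex cannot be told apart. In Muller glia 0% of 12992 genes were called higher in the CKO and 0.0077% lower (Gm17167, named after its value was seen); in rods 0% of 14146 were called higher and 0% lower. At an unadjusted p under 0.05 there were 782 and 349 genes, and DESeq2 called 108 and 226. Of the cadherin superfamily, catenin and WAVE complex lists no gene was called by edgeR in either type, among 2 other non-clustered and 35 clustered protocadherins tested in Muller glia and 2 and 37 in rods. DESeq2 called Pcdh11x lower (-0.85, adjusted p 0.0104) and Ctnna3 higher (1.35, 0.00171) in the CKO libraries than in that 1 control in Muller glia, and Pcdh15 higher (0.46, 0.0140) in rods. In the kit contrast the clustered Pcdhb22 was lower in v5.0 in Muller glia (-1.10, adjusted p 0.0373, up to 0.133 over alternatives), and in rods Pcdh15 (-0.49, 0.00516, up to 0.0286), Pcdhga7 (-0.76, 0.0211, up to 0.0813) and Cdh18 (-4.55, 0.0218, up to 0.0828) were lower. In rods Cdh13 (0.97, 0.0446, up to 0.156) and Ppp1ca (2.07, 0.0384, up to 0.114) were higher. All of these apart from Pcdh15 were lost without CKO 8, 9, 10 or 11, and Ppp1ca also without CKO 2, 5 or 6. Cdh13 was called in 4 of 15 alternatives. It was also lost without CKO 1, 2, 5 or 6, within the batch that holds both kits and with no filter.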

How the data were processed

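The deposited tables hold whole UMI counts per gene and nucleus. Per the study's methods the authors aligned with PIPseeker to GRCm39 (the labels name mm10), removed empty droplets, background RNA and doublets with CellBender and SOLO, took out further mixed nuclei and some clusters from retina CKO 4 and 5 by hand, and labelled nuclei in Seurat. UMIs were summed per deposited label and library with Python 3.11.15, pandas 2.3.3, numpy 2.4.6 and scipy 1.17.1. Fits ran in R 4.3.3 with edgeR 4.0.16 (quasi-likelihood, TMM, filterByExpr, at least 20 nuclei per library, Benjamini-Hochberg threshold 0.05) and were tested on simulated data. Alternatives were DESeq2 1.42.0, RLE factors, no filter, single batches and leaving out libraries. For brain ECs they were TMM factors, deeper or thinned nuclei, nucleus means, nuclei chosen by markers, and other folds and count minimums. Named genes are all members, called or extreme genes of the cadherin, catenin and WAVE lists, and reference genes. Members and lists were chosen with earlier results of these data known. Display coordinates were left out.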

Additional observations from a re-analysis of the deposited data

Results flagged for a closer look

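Among 95 groups of 4 to 7 retina CKO libraries of 1 kit, 6 had a library far from the others in a member's CPM, where chance marks about 1 in 20 groups. Pcdh17 in cone bipolar cells stood at 302 CPM in CKO 10, while the other v5.0 libraries had 221 to 228. Pcdh17 in Muller glia stood at 5.98 CPM in CKO 3 against 21.3 to 28.3 in the other v4.0 PLUS libraries. Pcdh10 in horizontal cells stood at 80.1 CPM in CKO 3 against 12.8 to 37.4.

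The other 3 concern the ganglion cells of CKO 4, which are 25 nuclei with 36147 UMIs. Pcdh7 stood at 692 CPM there against 1362 to 1845, Pcdh8 at 27.7 against 5.72 to 9.28, and Pcdh18 at 83.0 against 3.88 to 5.16. At this depth 1 UMI is worth 27.7 CPM. Pcdh20 also stood at 27.7 CPM there, against a median of 3.10 over the v4.0 PLUS libraries, but is not among the flagged groups.

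In the brain the Pcdh17 ratio of CKO over control lay below 1 in Glut_0 (0.798), OPCs (0.634) and astrocytes (0.528). It lay above 1 in ECs (12.9), glia (2.03), vSMCs (1.70), CP_6 (1.28) and Glut_19 (1.24). The intervals exclude 1 in each, but they cover counting error only, so no effect of genotype is read from them. The difference between these labels was not tested, since there is 1 library per genotype.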

How the results depend on the processing

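The Pcdh17 ratio in brain ECs stayed above 2 in all 9 alternatives. It was 20.3 in EC nuclei with few pericyte markers, 25.0 as a mean over nuclei and 3.27 in all brain nuclei with UMIs of at least 2 EC markers. By alternatives chosen after seeing the data it was 25.1 without other pericyte marker UMIs and 24.7 without neuronal marker UMIs. The number of members up by 2 rose from 1 to 3 in EC nuclei without other pericyte marker UMIs (Pcdh7 2.21, Pcdh18 3.98; 25.7% of all genes) and to 2 with no minimum beyond 1 UMI (Pcdh8, 0 and 1 UMIs; 21% of all genes). The number down rose from 0 to 3 in brain nuclei with 2 EC markers (Pcdh7 0.435, Pcdh9 0.420, Pcdh10 0.413; 17.1% of all genes).

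In retinal nuclei chosen by EC markers Pcdh17 in the control moved to 153 CPM with 2 markers and to 0 without neuron labels, and in the CKO libraries to 75.2 CPM with 4 markers and 62.0 without neuron labels. No control nucleus had 4 markers. Within the batch of the control 17 pairs lay above and 9 below the CKO libraries, of 54, beside 20.7% and 25.5% over all genes.

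Genotype calls in Muller glia were 108 by DESeq2, 4 without a filter and 17 within the batch of the control. Those in rods were 226 by DESeq2, 2 without a filter, 2 with RLE factors, 1 without the kit covariate and 1 within that batch. Kit calls in Muller glia were 628 by DESeq2, 491 without a filter and 591 within batch 3, and 31 to 505 on leaving out 1 library. Those in rods were 2609 by DESeq2 and 4726 within batch 3, and 410 to 2318 on leaving out 1 library. Kit calls of members in the other types were 14 within batch 3 and 2 to 12 on leaving out 1 library. The cause of these shifts was not tested. Of 120 alternatives for the 8 called member values 82 kept the call, 38 lost it and none changed direction. Of 614 for members not called 565 stayed, 22 became calls and 27 changed sign.

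No paired analysis was possible because each tissue has 1 control library. Depth limits Pcdh8 and Pcdh20 in brain ECs and all members in CKO pericytes, whose label holds 9213 UMIs.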
